A study of Homo sapiens with 2 samples.

Results

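The genes described here code for proteins that hold the Golgi apparatus together and move cargo through it: golgins, p24 cargo receptors of the TMED family, Yip1 domain proteins of the YIPF family, regulators of ARF GTPases, and further Golgi matrix and adaptor proteins. They were chosen by name, with earlier results of these data known. A row of the array was used where the platform annotation gave it 1 gene symbol from a list of 41 genes, older names included. This gave 38 genes, each with 1 row, out of 22411 genes that had a row to themselves. USO1 was not analysed here, and the rows for TMED7 and ARFGAP3 carried several gene symbols, so 3 of the 41 had no row to themselves.

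RNA came from MHCC97H, a human liver cancer cell line, in 2 groups: cells with GP73 knocked down, and control MHCC97H cells, described in the labels as having high GP73. GP73 is a Golgi membrane protein encoded by GOLM1. Both cultures grew in the same serum-containing medium, and total RNA was hybridised to Affymetrix whole-transcript arrays, 1 array per group. The sample titles end in shGP73 for the knockdown and in shv for the control, abbreviations that the labels do not spell out, so the control is not shown to be untreated parental cells. Whether either is 1 clone or a pool of cells was not stated in the labels. With 1 array per group the values have no replicate error and no test between the groups was possible.

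Golgins are long coiled-coil proteins anchored on Golgi membranes at one end, whose free end catches arriving vesicles. The p24 proteins are small transmembrane receptors that cycle between the endoplasmic reticulum and the Golgi in COPI and COPII vesicles. YIPF proteins are multispanning Golgi and endoplasmic reticulum membrane proteins that work in complexes with each other. ARF GTPases recruit coats and golgins to the membrane; guanine nucleotide exchange factors switch them on and GTPase-activating proteins switch them off.

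The targeted gene was checked first. GOLM1 had a log2 signal of 7.46 in the knockdown array and 9.13 in the control array, so it was 3.18-fold lower in the knockdown array (difference -1.67). GOLM1 had the lowest difference of the 11206 genes counted as measured, in the signals as deposited. Genes were called measured where the higher of both log2 signals was at least 5.84, the median of that quantity over all genes. All differences below are knockdown minus control on the log2 scale. Over all measured genes the median difference was -0.01, and the 5th and 95th percentiles were -0.44 and 0.38. As a gauge of error within an array, the differences of 2 rows of the same gene had an SD of 0.133 over 99 genes; this does not cover variation between cultures or hybridisations, and whether such rows share probes was not checked. Of the 13 hepatocyte markers 11 had a row to themselves, which TF and HNF4A did not, and 7 were measured. Their differences ran from -0.47 for APOB to 0.23 for APOA2, with FOXA2 at -0.26, APOA1 at 0.14 and SERPINA1, KRT8 and KRT18 between these. KRT8 and KRT18 gave signals near 10.8 in the knockdown array and 10.9 in the control array. Below the floor were ALB (3.76 in knockdown and 4.35 in control), FGB (3.93 in knockdown and 5.13 in control), TTR (4.55 in knockdown and 4.18 in control) and AFP (2.56 in both). For other cell types 8 fibroblast, 9 leukocyte and 7 endothelial markers were listed. Of those with a row to themselves, 1 of 7 fibroblast, 1 of 8 leukocyte and 3 of 7 endothelial genes were measured. None had a signal above 6.43 in either array. Of the measured ones, PECAM1 had a difference of -0.72, NKG7 0.47, COL1A1 0.17, CLDN5 -0.08 and KDR -0.06. Their part in the results was not tested. In RNA from a whole culture, fewer cells expressing a gene and less RNA per cell cannot be told apart.

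Most of the Golgi genes had close to the same signal in both arrays. Of the 38 genes 36 were measured. GCC1 and YIPF1 were below the floor in both arrays. Of the 36, 21 had a difference below 0, 13 above 0 and 2 were equal, with a median of -0.08; of all measured genes 50.5% were below 0. A difference was counted when it reached 0.32 on the log2 scale. No measured member was higher by 0.32 or more, a size reached by 8.24% of all measured genes. With 36 genes this is a description. Lower by 0.32 or more were 5 of the 36, namely YIPF4, YIPF6, GOLGA4, TRIP11 and GCC2, beside 11.5% of all measured genes. The 5 make 13.9% of the 36, a share near the background, so the count is not a result about the group as a whole. At 1.5-fold the count was 1, YIPF4, beside 1.55% of all measured genes, and none was as much higher, beside 1.08%.

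**Figure D1:**
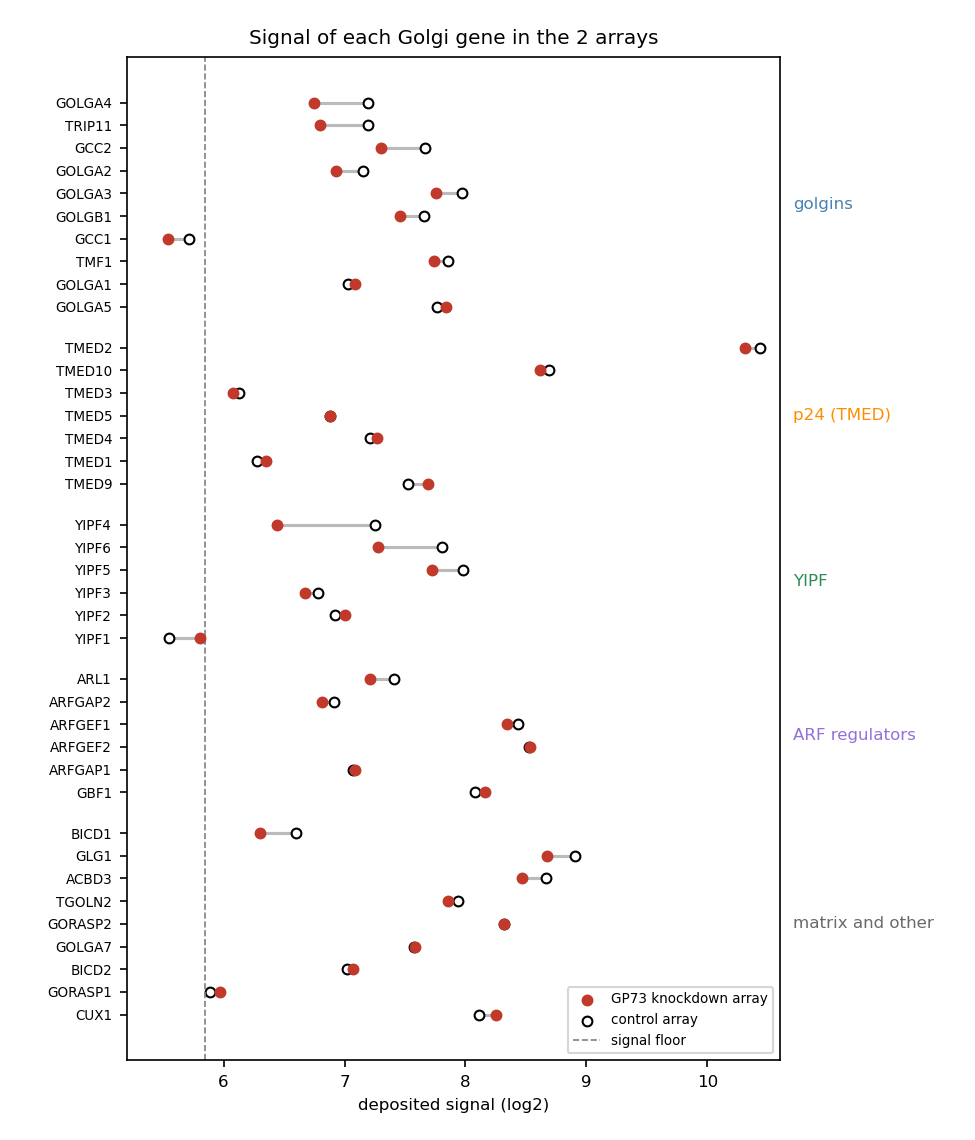
Deposited log2 signal (horizontal axis) of the 38 genes in the GP73 knockdown array (filled) and the control array (open), grouped by family, with the signal floor of 5.84 as a dashed line. The widest gap is that of YIPF4, at 6.44 in the knockdown array and 7.25 in the control array, and the gaps of the p24 genes and ARF regulators are short.

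The families differed in their medians. The YIPF genes had a median difference of -0.26 over 5 measured members and the golgins -0.22 over 9. The ARF regulators had -0.04 over 6. The p24 genes, over 7, and the group of matrix and other Golgi genes, over 9, both had a median of exactly 0, each set by 1 gene whose deposited signals were identical in the arrays (TMED5 and GORASP2). Identical values in both arrays were found for 190 measured genes, or 1.70%. No test of the difference between families was made. The medians of the golgins and YIPF genes were below 0 in all alternative settings run, some of which could not change a member's value. Those of the p24, ARF regulator and matrix groups took either sign when the arrays were scaled in another way. No direction is given for these groups.

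**Figure D2:**
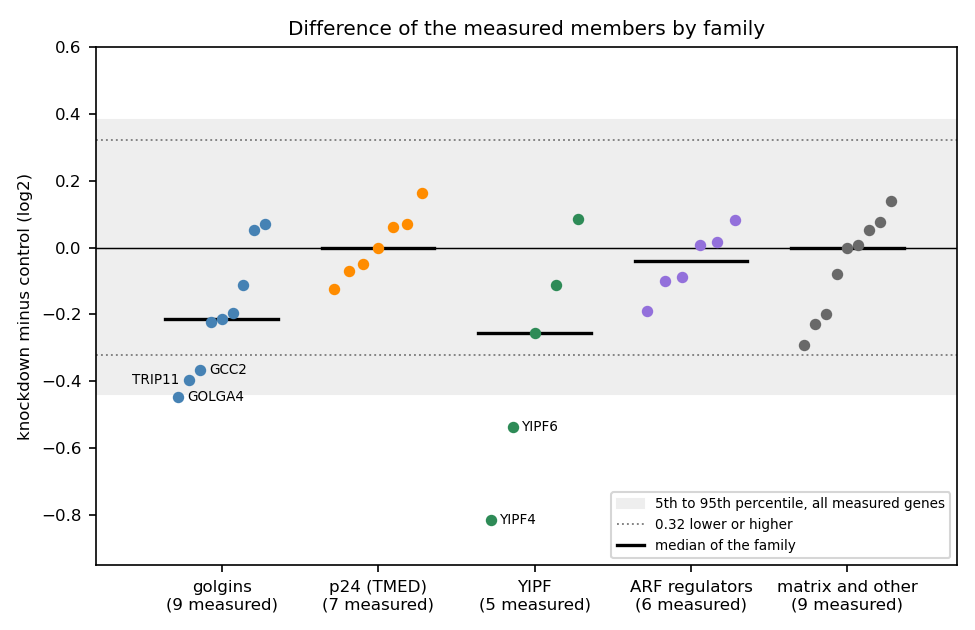
Difference between the arrays (knockdown minus control, log2, vertical axis) for the 36 measured members by family, with bars at the family medians, dotted lines at 0.32 on either side of 0 and a grey band from the 5th to the 95th percentile of all measured genes. YIPF4, YIPF6 and GOLGA4 lie below the band, and no member lies above it.

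Promoter windows from RefSeq (build GRCh38.p14) were read for the genes that stood lowest and for members that carry a Golgi stress motif to set the letters of the lower members beside those of the others. Each window runs from 250 bases before to 50 after the gene's start. Of the 41 genes 34 had a window, and shares are over the windows of 15842 protein-coding genes, 1 window per gene. Capitals in the sequences mark exact matches, on either strand, to any of 9 motifs. These were the Golgi stress response element ACGTGGC, the unfolded protein response element TGACGTGG, the endoplasmic reticulum stress element, the cyclic AMP element TGACGTCA, the E-box CACGTG, the CCAAT box, the ETS site CCGGAAG, the YY1 site AAGATGGC and the NRF1 site. The endoplasmic reticulum stress element contains a CCAAT box, and the Golgi stress and unfolded protein elements share the letters ACGTGG, so these matches can overlap.

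Among the YIPF genes, YIPF4 and YIPF6 were lower in the knockdown array and the others were closer to equal. YIPF4 (transcript cluster TC02000212.hg.1), a cis-Golgi protein known to form a complex with YIPF3, had a log2 signal of 6.44 in the knockdown array and 7.25 in the control array. The difference of -0.82, or 1.76-fold lower, was rank 39 of all measured genes counted from the lowest, and the lowest among the members. YIPF6 (TC0X000360.hg.1), a protein of the later Golgi, had 7.27 in the knockdown array and 7.81 in the control array, that is, -0.54 apart and 1.45-fold lower. YIPF6 ranked 255 from the lowest, so 2.27% of measured genes lay below it. YIPF5, which works between the endoplasmic reticulum and the Golgi, had 7.72 in the knockdown array and 7.98 in the control array, a difference of -0.26, short of the limit of 0.32. YIPF3, the partner of YIPF4, stood at 6.67 in the knockdown array and 6.78 in the control array, a difference of -0.11. The partners in that complex therefore had unequal differences. YIPF2 had 7.00 in the knockdown array and 6.92 in the control array, a difference of 0.09. YIPF1, with 5.81 in the knockdown array and 5.55 in the control array, was below the floor in both. The range over the 5 measured YIPF genes, 0.90, was the widest of any family, against 0.29 for the p24 genes.

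The promoter windows of the lowest YIPF genes are shown to set them beside each other: YIPF4 at chr2:32277654-32277953, plus strand, and YIPF6 at chrX:68498801-68499100, plus strand. YIPF4 has 3 CCAAT boxes and 1 ETS site, and YIPF6 has 1 YY1 site. Their GC content was 48.3% in YIPF4 and 67% in YIPF6, against a median of 62.7% over all windows. No motif searched for stood in both.
YIPF4: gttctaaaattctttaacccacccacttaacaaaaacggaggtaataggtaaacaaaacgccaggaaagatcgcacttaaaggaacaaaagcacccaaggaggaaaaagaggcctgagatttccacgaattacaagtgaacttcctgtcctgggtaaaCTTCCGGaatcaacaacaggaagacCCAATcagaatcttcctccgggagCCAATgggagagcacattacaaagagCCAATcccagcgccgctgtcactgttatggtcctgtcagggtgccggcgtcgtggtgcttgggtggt
YIPF6: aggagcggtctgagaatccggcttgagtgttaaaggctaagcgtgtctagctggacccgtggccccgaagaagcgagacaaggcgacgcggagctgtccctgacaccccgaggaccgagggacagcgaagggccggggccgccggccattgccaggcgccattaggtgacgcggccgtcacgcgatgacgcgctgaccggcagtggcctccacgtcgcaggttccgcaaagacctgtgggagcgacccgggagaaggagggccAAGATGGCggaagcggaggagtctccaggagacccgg

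Of the golgins, 7 of 9 measured members had a difference below 0, and 3 were lower by 0.32 or more, beside 50.5% and 11.5% of all measured genes; with so few genes these counts are a description. GOLGA4 (TC03000178.hg.1), a golgin of the trans-Golgi network that binds ARL1 through its GRIP domain, had a log2 signal of 6.75 in the knockdown array and 7.20 in the control array. Its difference was -0.45, or 1.36-fold lower, with 4.60% of measured genes below it. TRIP11 (TC14001444.hg.1), a cis-Golgi golgin that tethers highly curved vesicles, had 6.80 in the knockdown array and 7.19 in the control array, which put the knockdown 1.32-fold lower, at -0.40. GCC2 (TC02000666.hg.1), also a GRIP golgin, which captures vesicles returning from endosomes, had 7.30 in the knockdown array and 7.67 in the control array, a difference of -0.37, or 1.29-fold lower. Of all measured genes 8.55% lay below GCC2, and of these 3 golgins GOLGA4 alone lay below the 5th percentile of all measured genes. The remaining GRIP golgins did not share that position. GOLGA1 had 7.08 in the knockdown array and 7.03 in the control array, a difference of 0.05. GCC1 had 5.54 in the knockdown array and 5.72 in the control array, and was below the floor.

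The golgins of the Golgi stack lay between these values. GOLGA2, the cis-Golgi matrix protein that binds the stacking factor GORASP1, had 6.93 in the knockdown array and 7.15 in the control array, a difference of -0.22. GOLGA3 had 7.76 in the knockdown array and 7.97 in the control array, also a difference of -0.22. GOLGB1, giantin, which spans the membrane at its C-terminal end, had 7.46 in the knockdown array and 7.66 in the control array, a difference of -0.20. These 3 differences were nearly equal to one another and none reached 0.32. TMF1, a golgin that binds RAB6, had 7.74 in the knockdown array and 7.85 in the control array, a difference of -0.11. GOLGA5, a membrane-anchored golgin that helps to form Golgi ribbons, had 7.84 in the knockdown array and 7.77 in the control array, a difference of 0.07. GOLGA1 and GOLGA5 were the only measured golgins with a difference above 0, and with each array centred on its median both were just below 0, at -0.03 for GOLGA1 and -0.01 for GOLGA5.

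The windows of GCC2 (chr2:108448956-108449255, plus strand) and TRIP11 (chr14:92040010-92040309, minus strand) are shown beside those of the 2 golgins that were not lower, GOLGA1 (chr9:124941034-124941333, minus strand) and GOLGA5 (chr14:92794055-92794354, plus strand). GOLGA1 and GOLGA5 each hold 1 Golgi stress element overlapping 1 unfolded protein response element, and 1 ETS site, and GOLGA1 also holds 1 NRF1 site. GCC2 holds 1 CCAAT box, and none of the 9 motifs is written in the TRIP11 window. The windows of GOLGA1 and GOLGA5 were read because they hold the Golgi stress element, so this contrast follows from the choice. GOLGA2, GOLGA3, GOLGB1 and TMF1, with differences from -0.22 to -0.11, also lacked the element. A relation between motif and difference was not tested.
GCC2: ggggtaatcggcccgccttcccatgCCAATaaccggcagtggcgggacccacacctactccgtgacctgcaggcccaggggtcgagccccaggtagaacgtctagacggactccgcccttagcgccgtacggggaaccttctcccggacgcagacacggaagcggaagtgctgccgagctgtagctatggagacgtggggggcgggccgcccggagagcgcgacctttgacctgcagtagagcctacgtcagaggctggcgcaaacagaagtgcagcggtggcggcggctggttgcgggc
TRIP11: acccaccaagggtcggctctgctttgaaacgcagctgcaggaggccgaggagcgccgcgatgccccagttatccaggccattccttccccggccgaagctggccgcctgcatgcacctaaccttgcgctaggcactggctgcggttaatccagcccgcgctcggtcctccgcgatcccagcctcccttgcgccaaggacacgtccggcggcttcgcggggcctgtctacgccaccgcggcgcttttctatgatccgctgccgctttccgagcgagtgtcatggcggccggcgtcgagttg
GOLGA1: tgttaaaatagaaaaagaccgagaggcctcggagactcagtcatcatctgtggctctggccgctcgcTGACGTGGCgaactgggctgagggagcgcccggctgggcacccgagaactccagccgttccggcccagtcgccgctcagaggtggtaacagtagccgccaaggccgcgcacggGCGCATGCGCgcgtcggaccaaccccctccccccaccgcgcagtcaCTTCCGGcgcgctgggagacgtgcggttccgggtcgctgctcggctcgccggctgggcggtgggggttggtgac
GOLGA5: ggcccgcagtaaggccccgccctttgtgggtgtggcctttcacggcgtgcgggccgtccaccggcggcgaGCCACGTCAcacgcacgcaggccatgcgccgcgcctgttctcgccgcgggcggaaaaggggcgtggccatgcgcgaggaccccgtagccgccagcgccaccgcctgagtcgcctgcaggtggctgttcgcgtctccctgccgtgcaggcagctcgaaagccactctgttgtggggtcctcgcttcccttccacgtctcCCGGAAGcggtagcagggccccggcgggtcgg

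The p24 genes had nearly equal signals in the arrays, and all 7 measured members lay between -0.12 and 0.16. TMED2, the beta-class p24 protein, had a log2 signal of 10.31 in the knockdown array and 10.43 in the control array, a difference of -0.12. TMED10, its partner of the delta class, had 8.62 in the knockdown array and 8.69 in the control array, a difference of -0.07. The alpha-class members were slightly above 0 as deposited. With each array centred on its median TMED9 was at 0.08 and TMED4 at -0.03. TMED9 had 7.69 in the knockdown array and 7.52 in the control array, a difference of 0.16, and TMED4 had 7.27 in the knockdown array and 7.21 in the control array, a difference of 0.06. Of the gamma class, which binds cargo such as GPI-anchored proteins in some members, TMED1 had 6.35 in the knockdown array and 6.28 in the control array. TMED3 had 6.08 in the knockdown array and 6.13 in the control array, and TMED5 had 6.88 in both. Each of the 7 was within 0.32 of 0. The row shared by TMED7, TICAM2 and their read-through transcript had 6.07 in the knockdown array and 6.43 in the control array, a difference of -0.36, which cannot be assigned to 1 of them. TMED2 is shown for its Golgi stress element, which lies between an ETS site and a CCAAT box in its window (chr12:123584302-123584601, plus strand).
TMED2: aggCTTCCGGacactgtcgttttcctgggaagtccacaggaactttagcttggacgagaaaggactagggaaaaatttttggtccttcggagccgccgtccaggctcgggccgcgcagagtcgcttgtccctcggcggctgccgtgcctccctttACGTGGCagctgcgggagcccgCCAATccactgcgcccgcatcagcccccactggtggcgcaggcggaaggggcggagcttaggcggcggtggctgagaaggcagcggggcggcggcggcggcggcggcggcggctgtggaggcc

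The regulators of ARF GTPases also differed little, from -0.19 to 0.08 over 6 measured genes. GBF1, the exchange factor of the cis-Golgi, had a log2 signal of 8.16 in the knockdown array and 8.08 in the control array, a difference of 0.08. The trans-Golgi exchange factors ARFGEF1 and ARFGEF2, which are paralogs, had differences of -0.09 and 0.01. Their signals were 8.34 for ARFGEF1 and 8.53 for ARFGEF2 in the knockdown array, against 8.43 and 8.53 in the control array. The exchange factors thus stayed within 0.09 of 0. Of the GTPase-activating proteins, ARFGAP1 had 7.09 in the knockdown array and 7.07 in the control array, a difference of 0.02, and ARFGAP2 had 6.82 in the knockdown array and 6.92 in the control array, a difference of -0.10. ARL1, the small GTPase that recruits GRIP golgins to the trans-Golgi, had 7.21 in the knockdown array and 7.41 in the control array. Its difference of -0.19 was the lowest of the group, with 25.2% of measured genes below it. The row shared by ARFGAP3 and PACSIN2 had 7.86 in the knockdown array and 7.96 in the control array.

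The matrix and other Golgi proteins held no member past 0.32. The stacking factors GORASP1 and GORASP2 had signals of 5.97 and 8.32 in the knockdown array, against 5.89 and 8.32 in the control array. GOLGA7, a partner of the palmitoyltransferase ZDHHC9, had 7.58 in the knockdown array and 7.57 in the control array. TGOLN2, a protein cycling through the trans-Golgi network, had 7.86 in the knockdown array and 7.94 in the control array, a difference of -0.08. None of these 4 moved by as much as the SD between rows of 1 gene. GLG1, a Golgi sialoglycoprotein, had 8.67 in the knockdown array and 8.90 in the control array, a difference of -0.23. ACBD3, a scaffold that binds giantin and the lipid kinase PI4KB, had 8.46 in the knockdown array and 8.66 in the control array, a difference of -0.20. The dynein adaptors BICD1 and BICD2 lay apart from each other, at -0.29 and 0.05. BICD1 had 6.30 in the knockdown array and 6.60 in the control array, and BICD2 had 7.07 in the knockdown array and 7.02 in the control array. CUX1, whose gene makes both a transcription factor and a Golgi membrane protein, had 8.25 in the knockdown array and 8.11 in the control array, and its row does not tell the products apart.

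Over all families, 6 of the 34 members with a window held the Golgi stress element, which stood in 3.81% of all windows. They were ACBD3, GOLGA1, GOLGA5, GORASP2, TMED2 and TMED3. Their differences ran from -0.20 for ACBD3 to 0.07 for GOLGA5, and none was past 0.32. Of the 5 lowest members 4 had a window, and 0 of these 4 held it. Beside a share of 3.81% of all windows, 0 of 4 is not a result about these genes. The unfolded protein response element was written in 3 of the 34 windows and in 0.833% of all. For the ETS site it was 11 of the 34 and 14.2% of all, and for the CCAAT box 13 and 36.4%. The YY1 site stood in 4 of the 34 and in 3.91% of all, and the NRF1 site in 2 and in 1.75%. Of the 4 lower members with a window, 2 held a CCAAT box, 1 an ETS site and 1 a YY1 site. These are matches of letters and say nothing of binding. The window of ACBD3 (chr1:226186692-226186991, minus strand) is shown because its match lies after the gene's start.
ACBD3: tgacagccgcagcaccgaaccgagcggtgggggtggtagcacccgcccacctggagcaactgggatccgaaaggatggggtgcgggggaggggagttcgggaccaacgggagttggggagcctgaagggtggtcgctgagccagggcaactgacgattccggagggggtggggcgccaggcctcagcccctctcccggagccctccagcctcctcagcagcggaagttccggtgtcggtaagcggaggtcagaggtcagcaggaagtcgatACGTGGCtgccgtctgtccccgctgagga

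The difference also followed the length of the gene. The genomic span was taken from the GRCh38.p14 gene table, and the 11202 measured genes found there were put into deciles by span. The median difference was 0.14 in the decile with the shortest spans and -0.12 in the ninth, whose genes spanned 72.3 to 126 kb. The shortest decile held no member, and 24.4% of its genes were higher by 0.32 or more. In the second decile, with 4 members, this share was 17.0%, and in the seventh, with 6 members, it was 2.5%. Across the 36 measured members, which share these arrays, Spearman's rho between difference and span was -0.24, and over all measured genes it was -0.30. The golgins had a median span of 60.2 kb and the p24 genes 14.0 kb. The YIPF genes had 12.5 kb, the ARF regulators 66.0 kb and the matrix group 42.1 kb. The family medians did not follow the order of these spans, with the YIPF genes at -0.26 and the ARF regulators at -0.04. Within the YIPF family, however, the lowest genes had the longest spans, 38.7 kb for YIPF4 and 38.2 kb for YIPF6. YIPF5 spanned 12.5 kb, YIPF2 6.4 kb and YIPF3 5.1 kb. The part of span in these differences was not tested. Against the median of its own decile, a member was lower in 21 cases and higher in 15. YIPF4 and YIPF6, both in the seventh decile with a median of -0.10, were lower than that median by more than any other member was lower than its own. With the trend over span removed, YIPF4 stood at -0.73, YIPF6 at -0.45 and GOLGA4 at -0.36, whereas TRIP11 stood at -0.29 and GCC2 at -0.26, short of 0.32. The golgins then had a median of -0.11, against -0.22 as deposited. Mean signal also went with the difference over all measured genes, with a rho of -0.21, while over the members rho was 0.01. With the trend over mean signal removed, the median was -0.03 for all members, -0.14 for the golgins and -0.18 for the YIPF genes.

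**Figure D3:**
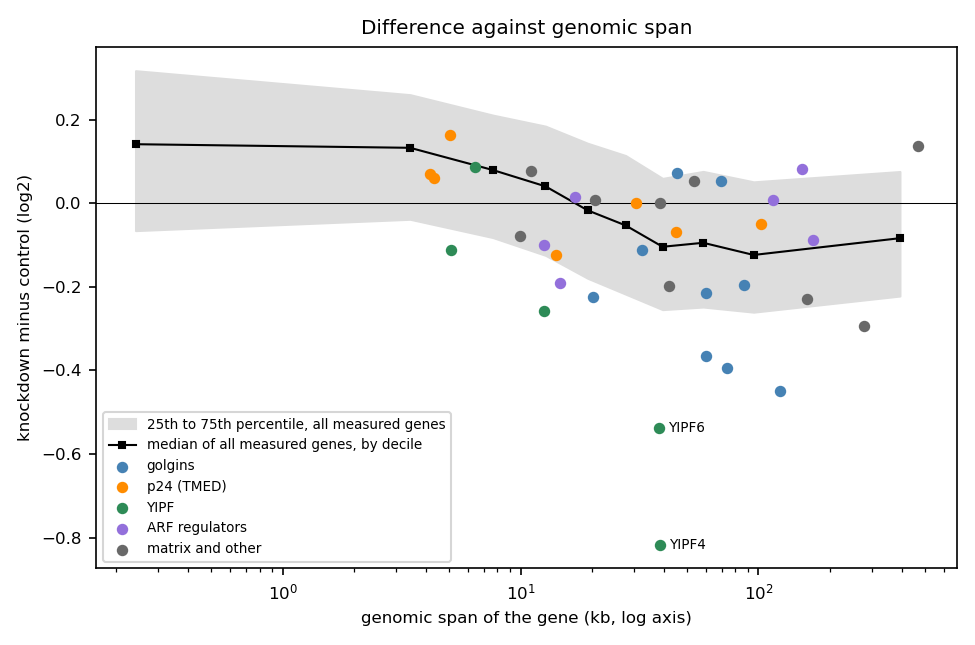
Difference (knockdown minus control, log2, vertical axis) of the 36 measured members against the genomic span of the gene (kb, log axis), with the median (squares) and the 25th to 75th percentiles (grey) of all measured genes in each decile of span. The medians of all genes lie at 0.14 for the shortest and -0.08 for the longest decile, and YIPF4 and YIPF6 lie below the rest of the members.

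Genes that work with these proteins were taken from lists of ARF and ARL GTPases and their effectors, other ARF regulators, cargo receptors, relatives of the p24 and YIPF genes, and golgin-binding proteins. Of 61 listed genes 53 were measured, with a median of -0.05, and 7 were lower and 2 higher by 0.32 or more. Of all measured genes 8.24% were higher by as much. The share lower, 13.2%, stood beside the background of 11.5%. Among the GTPases and effectors 6 of 7 measured genes had a difference below 0, beside 50.5% of all measured genes. Of the 7, 2 or 28.6% were lower by 0.32 or more, beside 11.5% of all measured genes, which describes few genes. ARFIP1, an effector of ARL1 and ARF GTPases, had a log2 signal of 6.35 in the knockdown array and 6.95 in the control array, a difference of -0.60, or 1.51-fold lower. ARF4 stood at -0.36, ARF6 at -0.24 and ARF3 at -0.17, and ARFIP2, the paralog of ARFIP1, had equal signals in the arrays. The cargo receptors had 11 of 14 measured genes below 0, beside 50.5% of all measured genes, and 1 of the 14, or 7.14%, was lower by 0.32 or more, under the background of 11.5%. The 4 furthest from 0 were ERGIC2 at -0.46, LMAN2L at -0.30, ERGIC1 at 0.28 and SURF4 at -0.27. The golgin-binding proteins had a median of 0.02, with 6 of 13 measured genes below 0 and 7 above. Lower by 0.32 or more were 3 of the 13, or 23.1%, beside 11.5% of all measured genes, a description of few genes. Among them VCPIP1, a factor in Golgi reassembly, stood at -0.43 and the Golgi membrane protein GOLIM4 at -0.40. The GTPase RAB2A stood at -0.39 and the SNARE STX5 at 0.28. The other ARF exchange factors and GTPase-activating proteins were spread around 0, with 8 of 16 below it. ACAP2 stood at -0.41, GIT2 at 0.34, ASAP2 at 0.33 and GIT1 at 0.20. Of the p24 and YIPF relatives, YIF1A stood at 0.26, TMED8 at -0.25 and YIF1B at -0.08.

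**Figure D4:**
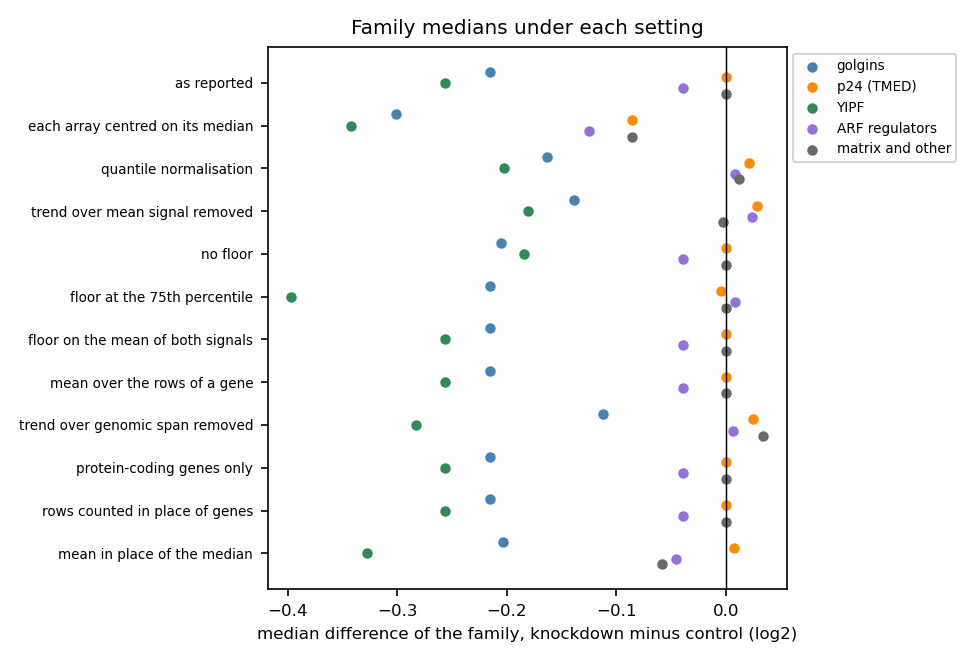
Median difference of each family (knockdown minus control, log2, horizontal axis) under the deposited signals and each alternative setting (vertical axis), 1 point per family. The golgins lie between -0.30 and -0.11 and the YIPF genes between -0.40 and -0.18, while the medians of the other families lie on both sides of 0.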

How the data were processed

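The authors deposited 1 log2 signal per row and array. The submitters' processing notes name Affymetrix Expression Console, and its version, the steps it ran, the log base and the genome build were not stated there; log2 was taken from the range of the values. Each array held 70523 rows. Of these 23781 carried 1 gene symbol in the platform annotation, 1543 carried several and 45199 none. The GRCh38.p14 gene table supplied current symbols, through the gene identifier for 21497 rows. The row with the highest mean stood for a gene. Median signals were 4.80 in the knockdown array and 4.72 in the control array. The number of arrays limits the precision.

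The members and lists were chosen with earlier results of these data known. The report names GOLM1, every member, and in each partner list the 4 measured genes with the largest absolute difference; ARFIP2, YIPF7 and GOLM2 were named outside this rule after their values were seen, and cell type markers are given by list. Relations to protein length could not be computed for want of a protein table, and genomic span was used in its place. The calculation of differences was tested on simulated data. Python 3.11.15, numpy 2.4.6, pandas 2.3.3, statsmodels 0.14.6 (lowess fraction 0.3) and matplotlib 3.10.9 were used.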

Additional observations from a re-analysis of the deposited data

How the results depend on the processing

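The alternatives were median centring, quantile normalisation, removal of the trend over mean signal, no floor, floors at the 75th percentile or on the mean of both signals, the mean over rows, rows in place of genes, the mean in place of the median, and, chosen after seeing the data, removal of the trend over genomic span and a background of protein-coding genes. Of 116 medians and counts recomputed, 113 stayed within the SD between rows of 1 gene or, for counts, within 1.5 times. Each member has 1 row, so the 2 settings on rows could not change its value. The floors and the protein-coding background change only which genes are counted. Part of the 113 was thus fixed in advance, and the count is no measure of robustness. With each array centred on its median, which puts all genes lower by 0.09, 2 of the 36 members were at least 1.5-fold lower, beside 3.13% of all genes, and 7 lower by 0.32 or more, beside 19.5%. The higher floor, at the 75th percentile, gave a YIPF median of -0.40. With no floor, which adds YIPF1 at 0.26, the YIPF median was -0.18. With the trend over genomic span removed 3 of the 36 were lower by 0.32 or more, beside 9.32% of all genes. With median centring and with the span trend removed, these counts at 0.32 are near the background. Of the members, YIPF4, YIPF6 and GOLGA4 were lower by 0.32 or more in each setting that gives a value per member. This includes the settings that could not change it. GCC2 was short of 0.32 with quantile normalisation, at -0.31, and with the trend over mean signal removed, at -0.29. The median of the ARF regulators ran from -0.13 to 0.02, that of the p24 genes from -0.09 to 0.03 and that of the matrix genes from -0.09 to 0.03. Removal of a trend over protein length was not run. No paired analysis was possible because each group had 1 array, and no replicate could be left out.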

Other observations

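The YIPF genes and their relatives fall into an alpha and a beta class, whose members are known to pair with each other. This grouping was set after the values were seen and has no test. Of the alpha class, YIPF4, YIPF6 and YIPF5 had differences of -0.82, -0.54 and -0.26, and YIPF7 was below the floor at 2.67 in the knockdown array and 2.64 in the control array. Of the beta class, YIPF3 and YIF1B had -0.11 and -0.08, and YIPF2 and YIF1A had 0.09 and 0.26. YIPF1, also of the beta class, was below the floor, with a difference of 0.26. All 3 measured alpha genes were lower than all 4 measured beta genes.

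GOLM2, the closest relative of the targeted gene, had 9.27 in the knockdown array and 9.25 in the control array.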
